A study of Mus musculus with 4 samples.

Results

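The sterol and fatty acid synthesis genes are a set of 36 mouse genes taken from pathway knowledge, chosen with earlier results of these data known. They cover the steps that turn acetyl-CoA into cholesterol, the steps that turn it into fatty acids, the factors that control both branches, 1 carrier of cholesterol, and 3 genes that sterol-sensing LXR receptors switch on. A gene counted as measured where the array had a probe set whose annotation named that gene alone, and its brightest probe set by the mean of 4 arrays stood for it. By this rule 35 of the 36 were measured, out of 19938 genes in all, and Acat2, the thiolase that opens the sterol branch, was not measured here. The levels were compared between TS2 and TS1, mouse cell lines labelled as derived from CD4+ T lymphocytes. Both were grown without treatment in Iscove-Dulbecco's medium with murine interleukin-9, a T cell growth factor. Genotype, strain and clonality of the lines are not given in these sources. Total RNA of biological duplicates A and B of each line was hybridised to Affymetrix mouse gene arrays, 1 array per duplicate. No label says whether the duplicates were grown as separate cultures, so p-values measure the spread between these samples only.

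Cells make cholesterol through mevalonate, isoprenoid diphosphates, squalene and lanosterol. When sterols run low in the endoplasmic reticulum, the escort protein SCAP carries the membrane-bound factors SREBP-1 and SREBP-2 to the Golgi, where they are cut and freed to enter the nucleus. INSIG proteins hold SCAP back when sterols are plentiful. SREBP-2 acts mainly on sterol genes and SREBP-1 mainly on fatty acid genes, while the LXR receptors, which bind oxysterols, switch on sterol export. Dividing T cells are known to raise both branches to build membrane.

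The values are log2 of RMA intensities, that is, background-corrected and normalized probe set signals. Column medians ran from 6.47 to 6.53 on this scale. Across probe sets, which are not independent, Pearson's r was 0.994 between the TS2 duplicates, 0.992 between the TS1 duplicates and 0.969 to 0.976 between arrays of different lines. The T cell label was checked against 10 measured markers, of which Cd3e, Cd247 and Ptprc were higher in TS2. Cd3e, part of the antigen receptor of T cells, lay at 12.74 and 12.53 in TS2 and at 6.45 and 6.41 in TS1, and Ptprc, the leukocyte antigen CD45, at 11.11 and 10.96 in TS2 and at 5.0 on both TS1 arrays. Cd4 lay at 5.15 and 5.28 in TS2 and at 5.38 and 5.36 in TS1, below the medians of the arrays in both lines, as did Cd3d, Cd8a, Cd2, Cd5 and Thy1. Cd3g, from the same receptor, lay at 10.39 and 11.98 in TS2 but at 10.52 and 6.07 in TS1, so the TS1 duplicates stand apart on it. The TS2 duplicates stand apart on Mcpt8, a basophil protease, at 7.89 and 11.64 in TS2 and at 5.75 and 4.55 in TS1 (difference 4.61, adjusted p = 0.0773). Fcer1a, another mast cell and basophil marker, was the brightest of all markers checked in both lines. Its mean was 13.04 in TS2 and 12.80 in TS1 (difference 0.24, adjusted p = 0.240 by limma). Cpa3, of the same list, had a mean of 8.43 in TS2 and 9.06 in TS1 and did not pass. Ms4a2 and Hdc, also of that list, lay below the medians of the arrays in both lines. The log2 of the mean intensity of the T cell list was 10.1 to 10.3 in TS2 and 5.78 to 7.62 in TS1. Marker lists of other cell types moved with the line too: 2 of 2 measured erythroid genes, 1 of 6 mast cell and basophil genes (Kit), 1 of 6 myeloid genes (Cd68) and 1 of 5 fibroblast genes (Pdgfra) were lower in TS2, and 0 of 4 B cell genes passed in limma's test (1 at an unadjusted p under 0.05). For the erythroid list that level was 6.14 to 6.28 in TS2 and 7.60 to 7.62 in TS1, and for the mast cell and basophil list 10.56 to 10.99 in TS2 and 10.29 to 10.47 in TS1. It was 5.80 to 5.85 in TS2 and 6.14 to 6.23 in TS1 for the myeloid list, 5.29 to 5.37 in TS2 and 5.33 to 5.37 in TS1 for the B cell list, and 6.07 to 6.10 in TS2 and 6.23 to 6.61 in TS1 for the fibroblast list. Their part in the differences given next was not tested.

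The question was whether TS2 and TS1, kept under the same conditions, carry the same levels of the 2 lipid branches. Transcripts of the sterol branch were broadly lower in TS2: all 17 measured steps had a lower mean in TS2, and 9 of them passed the test. The exception under another scaling was Mvd, whose difference of -0.0089 became 0.015 after centring and 0.084 after renewed quantile normalization. Among all 19938 genes, 9431 had a lower mean in TS2 and 8.45% passed as lower. The steps belong to 1 pathway and were read on the same arrays, so they are not independent. Of the 9 fatty acid steps, 8 had a lower mean in TS2 and 3 passed. Their sizes were uneven, with Scd1 at 9.18% and Fads2 at 26% of the TS1 level. Fasn, lower in mean, and Elovl6, slightly higher in mean, did not pass. The feedback gene Insig1 and the factor gene Srebf2 were lower in TS2, while the 3 LXR-driven genes did not pass. Of the 35 measured members, 14 (40%) were lower in TS2 at an adjusted p under 0.05, against 8.45% of all genes tested, and 0 were higher in limma's fit, against 5.05% of all genes. These shares of all genes include dim genes. Without the dimmest 30% of probe sets, 1821 of 14349 genes and 16 of 35 members passed as lower. Without the dimmest 50%, 1875 of 10194 genes and 17 of 34 members did, so the contrast with brighter genes was smaller. At an unadjusted p under 0.05 the fit had 24 of 35 members, against 5862 of all 19938 genes. At least 2-fold lower were 5 members, Sqle, Tm7sf2, Insig1, Scd1 and Fads2, and all 5 were called. Among all genes 3.3% were at least 2-fold lower and 2.94% were so and called. Both TS2 arrays lay below both TS1 arrays for 27 members, an order seen in 29.3% of all genes, and above them for 3, an order seen in 29.1%. The median difference, TS2 minus TS1 on the log2 scale, was -0.42 over the members and 0.013 over all genes. In RNA of whole cultures, fewer cells that make a transcript and less of it per cell cannot be told apart. Each adjusted p comes from limma with Benjamini-Hochberg adjustment over all 19938 genes, since with 2 arrays a line the exact permutation test, taken two-sided, stops at p = 0.333. Calls depended on single arrays: dropping TS1 A kept 9 of the 14 calls and added those of Idi1 and Fads1, dropping TS1 B kept 5, dropping TS2 A kept 8 and dropping TS2 B kept 7. Sqle, Hsd17b7, Insig1 and Fads2, 4 of the 14, passed whichever array was left out.

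**Figure D1:**
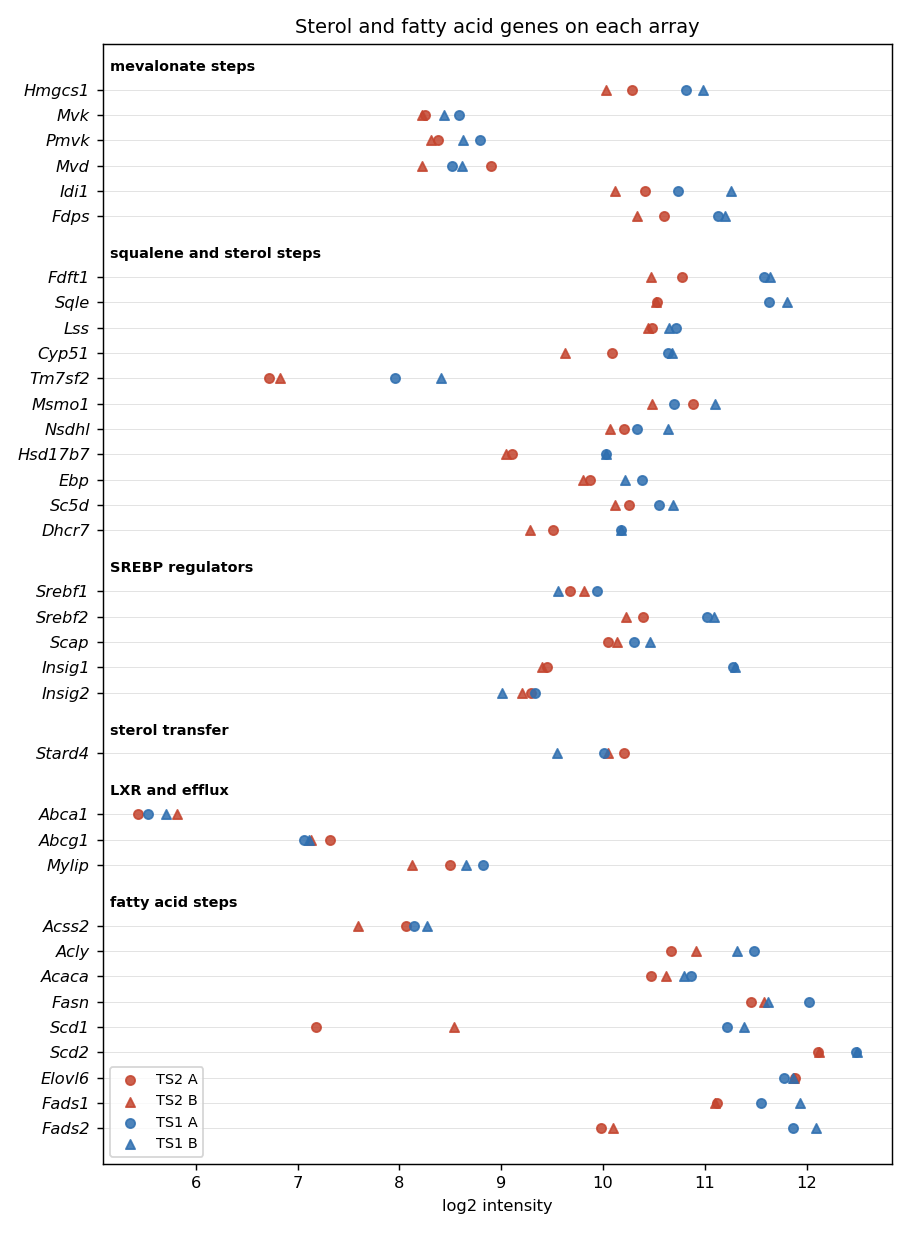
Log2 intensity of the 35 measured genes (horizontal axis), grouped by role, with TS2 A and TS2 B in red and TS1 A and TS1 B in blue (circles for A, triangles for B). The red points lie left of the blue ones for 27 genes, with the widest gaps between line means for Scd1, Fads2 and Insig1.

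Promoter sequences are shown because many members moved in the same direction. RefSeq windows of build GRCm38.p6, running from 250 bases before to 50 bases after a gene's start, were matched by symbol to 28 of the 36 members, 10 of them called. A gene with several starts has several windows, and the 28 members had 36 windows. Each window was searched on both strands for TCACNCCAC, a core of the sterol regulatory element, for the E-box CACGTG, which SREBP-1 can also bind, and for CCAAT and GGGCGG, the boxes of NF-Y and Sp1, factors known to act beside SREBP. The stretches printed are the 250 bases before the start of the 4 called members with the largest differences among those with 1 window, and of Hmgcs1, the member whose window held TCACNCCAC. Each reads 5′ to 3′ on the gene's strand, capitals mark the searched letters on either strand, and none of the motifs overlapped one of another kind. Fads2, which encodes a front-end desaturase of polyunsaturated fatty acids, lies on the minus strand (chr19:10101504-10101753). Insig1 lies on the plus strand (chr5:28071162-28071411). Tm7sf2 lies on the minus strand (chr19:6067851-6068100) and Hsd17b7 on the minus strand (chr1:169969206-169969455). Hmgcs1 lies on the plus strand (chr13:119690101-119690350).
Fads2: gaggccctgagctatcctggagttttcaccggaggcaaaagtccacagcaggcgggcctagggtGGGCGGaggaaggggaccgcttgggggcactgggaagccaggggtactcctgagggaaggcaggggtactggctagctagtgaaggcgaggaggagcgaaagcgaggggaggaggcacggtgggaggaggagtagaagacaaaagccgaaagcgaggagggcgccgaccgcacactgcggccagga
Insig1: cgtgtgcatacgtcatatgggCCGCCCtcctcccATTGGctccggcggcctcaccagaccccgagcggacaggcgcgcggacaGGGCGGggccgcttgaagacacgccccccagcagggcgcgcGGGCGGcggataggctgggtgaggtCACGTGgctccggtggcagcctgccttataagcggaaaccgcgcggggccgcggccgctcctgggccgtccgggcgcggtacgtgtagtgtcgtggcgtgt
Tm7sf2: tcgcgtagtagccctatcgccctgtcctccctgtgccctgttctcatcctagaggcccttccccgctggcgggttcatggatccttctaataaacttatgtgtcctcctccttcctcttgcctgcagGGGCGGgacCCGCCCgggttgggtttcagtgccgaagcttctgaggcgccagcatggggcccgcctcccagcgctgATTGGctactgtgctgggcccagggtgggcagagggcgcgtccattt
Hsd17b7: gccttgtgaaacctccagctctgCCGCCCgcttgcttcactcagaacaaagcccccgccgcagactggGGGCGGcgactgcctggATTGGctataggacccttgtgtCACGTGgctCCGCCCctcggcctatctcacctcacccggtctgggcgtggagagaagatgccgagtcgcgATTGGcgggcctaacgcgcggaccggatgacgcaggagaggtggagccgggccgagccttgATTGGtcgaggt
Hmgcs1: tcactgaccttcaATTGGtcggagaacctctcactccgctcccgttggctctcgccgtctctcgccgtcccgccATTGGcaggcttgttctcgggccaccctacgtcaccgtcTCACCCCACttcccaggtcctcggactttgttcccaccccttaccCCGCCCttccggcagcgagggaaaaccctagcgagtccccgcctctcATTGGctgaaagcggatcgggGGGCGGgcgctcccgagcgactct

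The 4 motifs were unequally common. TCACNCCAC stood in 1 of 36 member windows and in 1.24% of all 32851 windows. CACGTG stood in 7 of 36 member windows, against 7.15% of all windows and 8.24% of windows of genes measured here. CCAAT stood in 23 of 36, against 37.4% in both of those sets. GGGCGG stood in 28 of 36, against 35.7% of all windows and 49.2% of those of measured genes. Among the 10 called members with a window, 1 had TCACNCCAC, 3 had CACGTG, 9 had CCAAT and 10 had GGGCGG in some window. Among all 28 members with a window, called or not, 1, 6, 22 and 24 had these motifs. The shares of all windows are per window, and none was computed per gene. A match describes letters in these windows and is not a measured site. A window without a match can still hold a site with other letters, and sequence outside the windows was not searched. The called members Fdps, Fdft1, Sqle and Scd1 had no window.

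The mevalonate steps had 6 measured genes, of which 2 were lower in TS2 and 4 did not pass. Hmgcs1, the synthase that makes HMG-CoA, lay at 10.29 and 10.02 in TS2 and at 10.81 and 10.98 in TS1. Its difference was -0.74 (SE 0.13, adjusted p = 0.0262), which puts TS2 at 59.9% of the TS1 level. Fdps, which joins isoprenoid units into farnesyl diphosphate, lay at 10.60 and 10.34 in TS2 and at 11.13 and 11.20 in TS1. The TS2 arrays were the lower ones for both genes, with no overlap. Fdps differed by -0.70 (SE 0.12, adjusted p = 0.0258). Neither call held when any 1 array was dropped, with adjusted p from 0.0503 to 0.115 for Hmgcs1 and from 0.0514 to 0.111 for Fdps.

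Idi1, the isomerase that makes dimethylallyl diphosphate, had a difference of the same size as Hmgcs1 but wider duplicates. It lay at 10.42 and 10.12 in TS2 and at 10.73 and 11.26 in TS1, a difference of -0.73 (SE 0.21, adjusted p = 0.0894), and it passed without TS1 A (adjusted p = 0.0396). Its other probe set gave -0.71. Mevalonate kinase (Mvk) differed by -0.28 (95% interval -0.53 to -0.026) and phosphomevalonate kinase (Pmvk) by -0.36 (95% interval -0.62 to -0.10), and neither passed. In both, the TS2 arrays lay below the TS1 arrays. Mvd, the decarboxylase that follows, overlapped between the lines: it lay at 8.90 and 8.22 in TS2 and at 8.52 and 8.62 in TS1. Its interval, -0.61 to 0.59, leaves room for a difference in either direction.

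Of the 11 steps from squalene to cholesterol, 7 were lower in TS2 and 4 did not pass. Fdft1, squalene synthase, commits the pathway to sterols. It lay at 10.78 and 10.47 in TS2 and at 11.58 and 11.64 in TS1, a difference of -0.99 (SE 0.13, adjusted p = 0.0126) and 50.4% of the TS1 level. Its other probe set differed by -1.12. Without TS1 B the adjusted p of Fdft1 was 0.0543. Sqle, squalene epoxidase and a rate-limiting enzyme, lay at 10.53 and 10.52 in TS2 and at 11.63 and 11.80 in TS1. The TS2 duplicates were closer together than the TS1 duplicates, and the lines were far apart. Sqle differed by -1.19 (SE 0.10, adjusted p = 0.00353), or 43.8% of the TS1 level. Lss, which closes squalene epoxide into lanosterol, differed by only -0.22 (95% interval -0.44 to 0.0071, adjusted p = 0.181), although its arrays did not overlap.

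Among the enzymes that trim lanosterol, Tm7sf2 showed the largest difference of the sterol steps. Tm7sf2 encodes a sterol reductase. It lay at 6.72 and 6.83 in TS2 and at 7.96 and 8.41 in TS1, a difference of -1.41 (SE 0.17, adjusted p = 0.00997) and 37.6% of the TS1 level. Tm7sf2 was the dimmest sterol step in TS2, close to the medians of the arrays, and signal over background was not examined. Without TS2 A its adjusted p was 0.0566. Cyp51, the lanosterol demethylase, lay at 10.09 and 9.63 in TS2 and at 10.64 and 10.68 in TS1. Nearly all of the spread within a line was in TS2. Cyp51 differed by -0.80 (SE 0.17, adjusted p = 0.0411), a call that did not hold when TS1 A, TS1 B or TS2 B was dropped (adjusted p = 0.105, 0.130 and 0.104), nor after renewed quantile normalization (adjusted p = 0.0548).

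Hsd17b7, a ketosteroid reductase of the same removal of methyl groups, was among the steadiest members. It lay at 9.10 and 9.04 in TS2 and at 10.03 and 10.03 in TS1, a difference of -0.96 (SE 0.087, adjusted p = 0.00437), or 51.6% of the TS1 level. Its partners in that reaction did not pass. Msmo1, the methylsterol oxidase, lay at 10.89 and 10.48 in TS2 and at 10.69 and 11.10 in TS1, so the lines overlapped (difference -0.21, 95% interval -0.73 to 0.30). Nsdhl, the decarboxylating dehydrogenase, lay at 10.20 and 10.07 in TS2 and at 10.33 and 10.64 in TS1 (difference -0.35, 95% interval -0.70 to -0.0046, adjusted p = 0.166).

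The last steps rearrange and reduce the sterol ring. Dhcr7, the reductase that makes cholesterol from its dehydro precursor, lay at 9.51 and 9.28 in TS2 and at 10.18 and 10.17 in TS1. The TS1 duplicates were nearly equal, and both TS2 arrays were below them. Dhcr7 differed by -0.78 (SE 0.11, adjusted p = 0.0157), a call that did not hold when TS1 B or TS2 B was dropped (adjusted p = 0.0588 and 0.0766). Ebp, the sterol isomerase, lay at 9.87 and 9.81 in TS2 and at 10.38 and 10.21 in TS1, a difference of -0.46 (SE 0.10, adjusted p = 0.0482). The call of Ebp did not hold when any 1 array was dropped (adjusted p from 0.0666 to 0.217), after centring (adjusted p = 0.0742) or after renewed quantile normalization (adjusted p = 0.0998). Sc5d, the desaturase that acts between them, lay at 10.26 and 10.12 in TS2 and at 10.55 and 10.68 in TS1 (difference -0.42, 95% interval -0.69 to -0.16, adjusted p = 0.0622). Sc5d passed with a prior variance that follows intensity (adjusted p = 0.046) and without the dimmest 50% of probe sets (adjusted p = 0.0431).

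**Figure D2:**
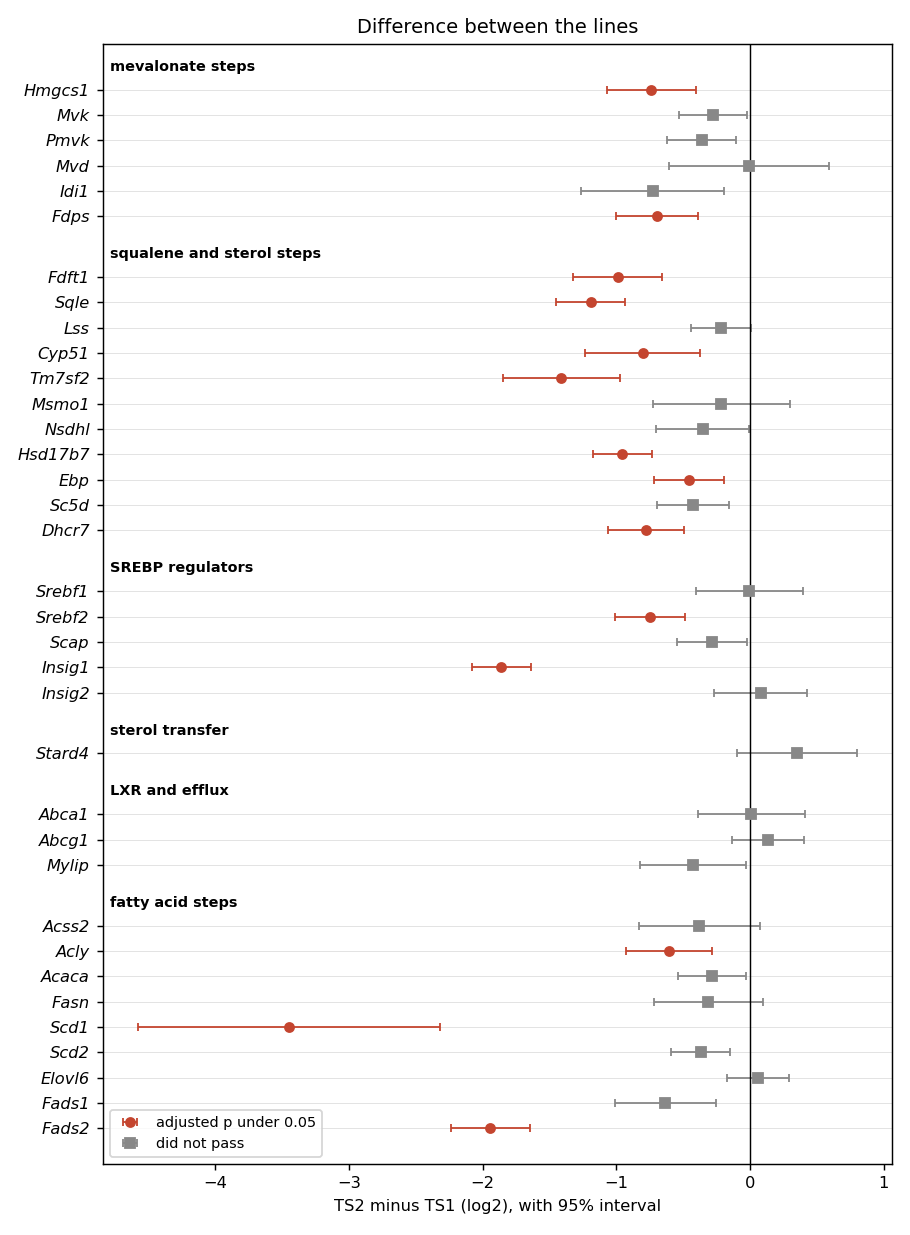
TS2 minus TS1 on the log2 scale for the 35 measured genes, with 95% intervals from limma (bars). The 14 genes in red passed an adjusted p of 0.05 and all lie left of 0; the grey squares did not pass.

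The duplicates themselves differed in the sterol branch, with no label that says why. TS2 A was above TS2 B for 16 of the 17 steps, with a median A minus B of 0.14, against 53.0% of all genes and a median of 0.011. The range ran from -0.11 for Tm7sf2 to 0.68 for Mvd. In TS1, B was above A for 11 of 17 steps, near the share of all genes (11079 of 19938), with a median A minus B of -0.070 against -0.026 over all genes. These within-line differences were smaller than the difference between the lines for each of the 9 called steps. For Mvd and Msmo1 they were larger. The other 6 uncalled steps had line differences larger than the gap between their duplicates.

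**Figure D3:**
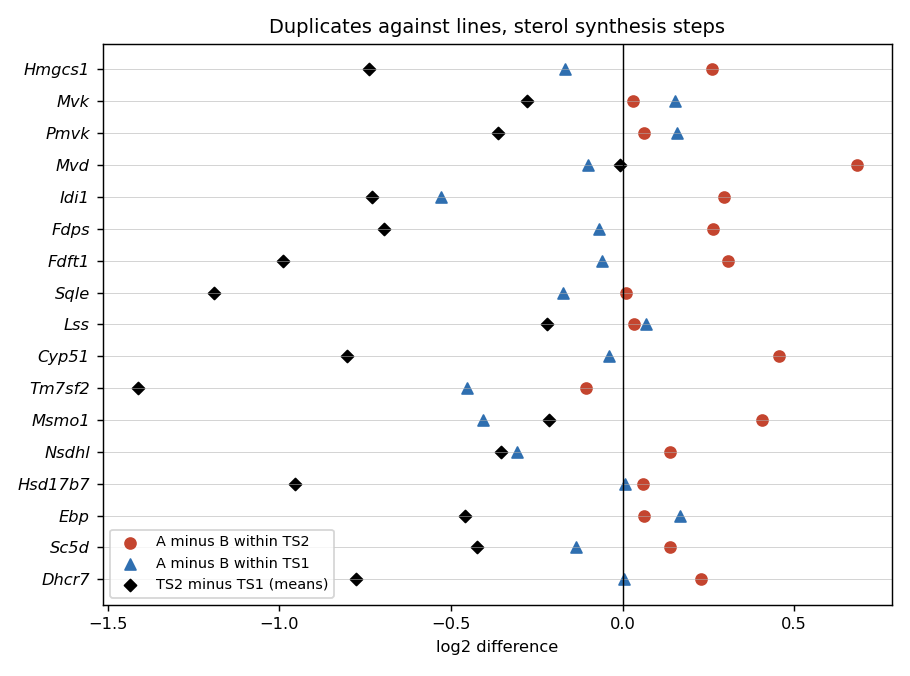
Log2 differences for the 17 measured sterol synthesis steps: A minus B within TS2 (red circles), A minus B within TS1 (blue triangles) and TS2 minus TS1 of the line means (black diamonds). Red circles lie right of 0 for 16 genes, and black diamonds lie left of 0 for all 17, with Mvd at -0.0089, a sign that turns under both other scalings.

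The regulators of the pathway were not uniform. Insig1, the retention protein that is itself a well-known SREBP target, showed the widest separation relative to its error of any member. It lay at 9.45 and 9.40 in TS2 and at 11.28 and 11.30 in TS1. Both lines had duplicates that nearly coincided. Insig1 differed by -1.86 (SE 0.086, adjusted p = 0.000718), which is 27.5% of the TS1 level. Its paralog Insig2, which depends less on SREBP, lay at 9.30 and 9.20 in TS2 and at 9.33 and 9.01 in TS1, with overlap (difference 0.079, 95% interval -0.27 to 0.42).

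Srebf2, the gene of SREBP-2, lay at 10.40 and 10.23 in TS2 and at 11.03 and 11.09 in TS1. The lines did not overlap, and the difference was -0.75 (SE 0.10, adjusted p = 0.0139), or 59.6% of the TS1 level. The call did not hold when TS1 B, TS2 A or TS2 B was dropped (adjusted p = 0.0552, 0.0503 and 0.0801). Srebf1, the gene of both forms of SREBP-1, lay at 9.68 and 9.81 in TS2, inside the TS1 arrays at 9.95 and 9.55. Its difference was -0.0057 with an interval of -0.40 to 0.39. Whether the differences of Srebf2 and Srebf1 differ from each other was not tested. Scap, the escort, differed by -0.29 (95% interval -0.55 to -0.022, adjusted p = 0.146). Stard4, a carrier of cholesterol through the cytosol and a known SREBP-2 target, had a higher mean in TS2: it lay at 10.21 and 10.05 in TS2 and at 10.01 and 9.55 in TS1 (difference 0.35, 95% interval -0.099 to 0.80, adjusted p = 0.268).

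None of the 3 genes of the LXR side passed in limma's fit, and 1, Mylip, had an unadjusted p under 0.05. Abca1, the exporter that loads cholesterol onto apolipoproteins, lay at 5.44 and 5.81 in TS2 and at 5.53 and 5.70 in TS1, below the medians of the arrays. The difference was 0.0082 with an interval of -0.39 to 0.41. Abcg1, an exporter to lipoprotein particles, lay at 7.32 and 7.13 in TS2 and at 7.06 and 7.11 in TS1 (difference 0.14, 95% interval -0.13 to 0.41). Mylip, a ubiquitin ligase that removes lipoprotein receptors, lay at 8.49 and 8.13 in TS2 and at 8.82 and 8.65 in TS1 (difference -0.43, 95% interval -0.82 to -0.034, adjusted p = 0.145). Signal over background was not examined for dim genes such as Abca1.

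The 9 fatty acid steps had 3 genes lower in TS2 and 6 that did not pass. Scd1, the desaturase that makes oleic acid, had the largest difference of all members. It lay at 7.18 and 8.54 in TS2 and at 11.22 and 11.39 in TS1. The TS2 arrays were far below the TS1 arrays but also far from each other. Scd1 differed by -3.45 (SE 0.44, adjusted p = 0.0116), or 9.18% of the TS1 level, with a 95% interval of -4.57 to -2.32. The difference was -4.12 without TS2 B and -2.77 without TS2 A, and the call was lost without TS1 B (adjusted p = 0.0556). Its paralog Scd2 was nearly equal within each line, at 12.11 and 12.12 in TS2 and at 12.48 and 12.49 in TS1. Its difference was -0.37 (SE 0.085, adjusted p = 0.0521), and it passed with a prior variance that follows intensity (adjusted p = 0.00974). The Scd genes are close copies and probe sequences were not examined, so how far each set reads its own gene is uncertain.

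The desaturases of polyunsaturated fatty acids lie next to each other in the pathway. Fads2, whose promoter stretch is printed among those given before, lay at 9.98 and 10.10 in TS2 and at 11.87 and 12.09 in TS1. The lines were widely apart, with a difference of -1.94 (SE 0.12, adjusted p = 0.0014), or 26% of the TS1 level. Fads1, which acts after it, lay at 11.12 and 11.10 in TS2 and at 11.55 and 11.93 in TS1 (difference -0.63, SE 0.15, adjusted p = 0.0551). Fads1 passed without TS1 A (adjusted p = 0.0226) and under 5 other alternatives, with adjusted p from 0.0367 to 0.0498.

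The core enzymes of fatty acid synthesis had smaller differences than Scd1 and Fads2. Acly, which splits citrate into acetyl-CoA, lay at 10.67 and 10.91 in TS2 and at 11.48 and 11.32 in TS1. It differed by -0.61 (SE 0.12, adjusted p = 0.0391), a call that did not hold when any 1 array was dropped (adjusted p from 0.0763 to 0.179), nor after renewed quantile normalization (adjusted p = 0.0596). Acaca, the acetyl-CoA carboxylase, lay at 10.47 and 10.62 in TS2 and at 10.86 and 10.80 in TS1 (difference -0.29, adjusted p = 0.138), and its other probe set differed by -0.37. Fasn, fatty acid synthase, lay at 11.45 and 11.58 in TS2 and at 12.02 and 11.62 in TS1, where TS1 A was the higher array (difference -0.31, 95% interval -0.71 to 0.093). Acss2, which makes acetyl-CoA from acetate, differed by -0.38 (95% interval -0.83 to 0.072). Elovl6, the elongase that makes stearic acid, lay at 11.88 on both TS2 arrays and at 11.78 and 11.87 in TS1. Its difference was 0.059 with an interval of -0.17 to 0.29, and both TS2 arrays lay above both TS1 arrays.

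**Figure D4:**
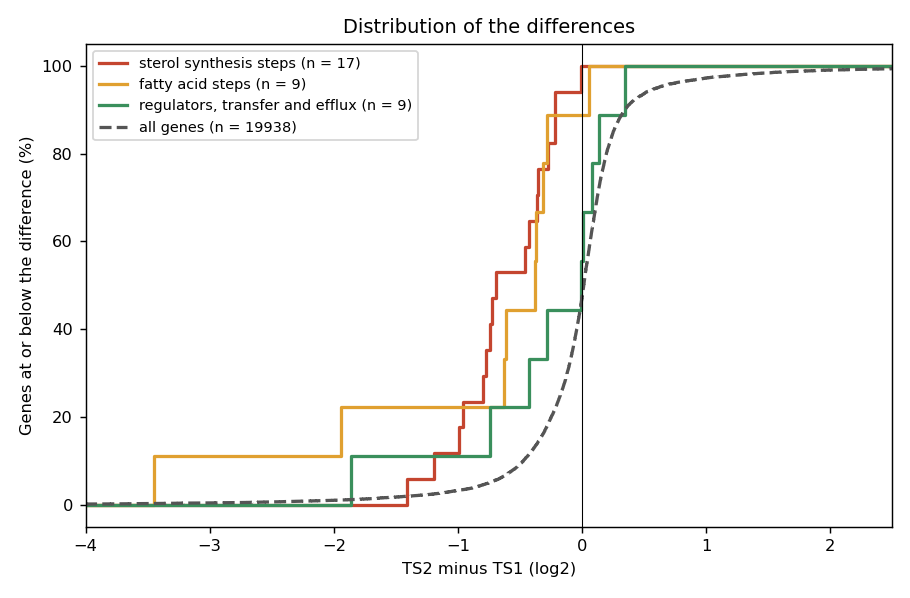
Cumulative share of genes (vertical axis, percent) at or below each TS2 minus TS1 difference (log2, horizontal axis) for 17 sterol synthesis steps, 9 fatty acid steps, 9 regulators, transfer and efflux genes, and all 19938 genes (dashed). The sterol curve lies left of 0, with Mvd at -0.0089 (above 0 under both other scalings) and a median of -0.70, the fatty acid median is -0.38, and that of the regulators is -0.0057.

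Other genes around the pathway were taken from lists that were chosen with earlier results of these data known. The isoprenoid branch, which leaves the pathway before squalene, had 1 of 13 measured genes lower in TS2 and 0 higher by limma (4 at an unadjusted p under 0.05 in either direction), with a median difference of -0.20. The called gene was Icmt, which methylates prenylated proteins, at 8.14 and 8.29 in TS2 and at 8.70 and 8.78 in TS1 (adjusted p = 0.0314), and it did not pass when any 1 array was dropped (adjusted p from 0.065 to 0.172). The processing and turnover of SREBP had 1 of 13, Paqr3, a Golgi protein that anchors SCAP and SREBP. Paqr3 lay at 8.04 and 8.08 in TS2 and at 9.07 and 9.25 in TS1, a difference of -1.10 (SE 0.10, adjusted p = 0.00483). Sterol uptake, storage and oxysterol genes had 1 of 14, Scarb1, a receptor that takes up cholesterol from lipoproteins. Scarb1 lay at 8.94 and 8.89 in TS2 and at 9.82 and 10.15 in TS1, a difference of -1.07 (adjusted p = 0.0109) that did not pass without TS2 A (adjusted p = 0.0579) or without TS2 B (adjusted p = 0.0617). These shares, 7.14% to 7.69%, were near the 8.45% of all genes.

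LXR receptors and further LXR targets had 2 of 11 measured genes higher (18.2%, against 5.05% of all genes) and 1 lower in TS2 (9.09%, near the 8.45% of all genes). Smpdl3a, a secreted phosphodiesterase, lay at 8.12 and 7.26 in TS2 and at 4.99 and 5.19 in TS1. The lines were far apart, with a difference of 2.60 (SE 0.29, adjusted p = 0.00805). Pltp, which transfers phospholipids between lipoproteins, lay at 7.20 and 7.71 in TS2 and at 6.63 and 6.25 in TS1 (difference 1.02, adjusted p = 0.0433). Lpcat3, which places polyunsaturated chains into phospholipids, lay at 11.20 and 11.65 in TS2 and at 12.17 and 12.21 in TS1 (difference -0.76, adjusted p = 0.0463). Pltp did not pass when any 1 array was dropped (adjusted p from 0.0508 to 0.140). Lpcat3 did not pass when TS1 A, TS1 B or TS2 A was dropped (adjusted p = 0.113, 0.141 and 0.124). The receptor gene Nr1h3, named although it was not called, differed by 0.18 (95% interval -0.039 to 0.40).

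Further genes of fatty acid synthesis and elongation had 6 of 22 lower in TS2 (27.3%, against 8.45% of all genes) and 0 higher by limma (against 5.05%). Without the dimmest 50% of probe sets 1875 of 10194 genes passed as lower, and this list was not counted under that filter. At an unadjusted p under 0.05 there were 11, in either direction. Fads3, a relative of Fads1 and Fads2, lay at 6.03 on both TS2 arrays and at 8.52 and 9.27 in TS1, a difference of -2.87 (SE 0.25, adjusted p = 0.00408). Hacd2, a dehydratase of fatty acid elongation, lay at 11.54 and 11.59 in TS2 and at 12.69 and 12.54 in TS1, a difference of -1.05 (adjusted p = 0.00483). Both kept their calls whichever array was left out. Hacd1, a relative of Hacd2, differed by -1.09 and the elongase Elovl7 by -1.12. The other two, named after their values were seen, were Mcat, the transferase of mitochondrial fatty acid synthesis (difference -0.69), and Slc25a1, the citrate carrier that feeds Acly (difference -0.53). These last 4 calls depended on single arrays. Hacd1 and Mcat did not pass when TS1 B, TS2 A or TS2 B was dropped (adjusted p up to 0.101 for Hacd1 and 0.095 for Mcat). Elovl7 did not when TS1 A, TS1 B or TS2 B was dropped (up to 0.145), nor Slc25a1 when any 1 array was (up to 0.144).

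**Figure D5:**
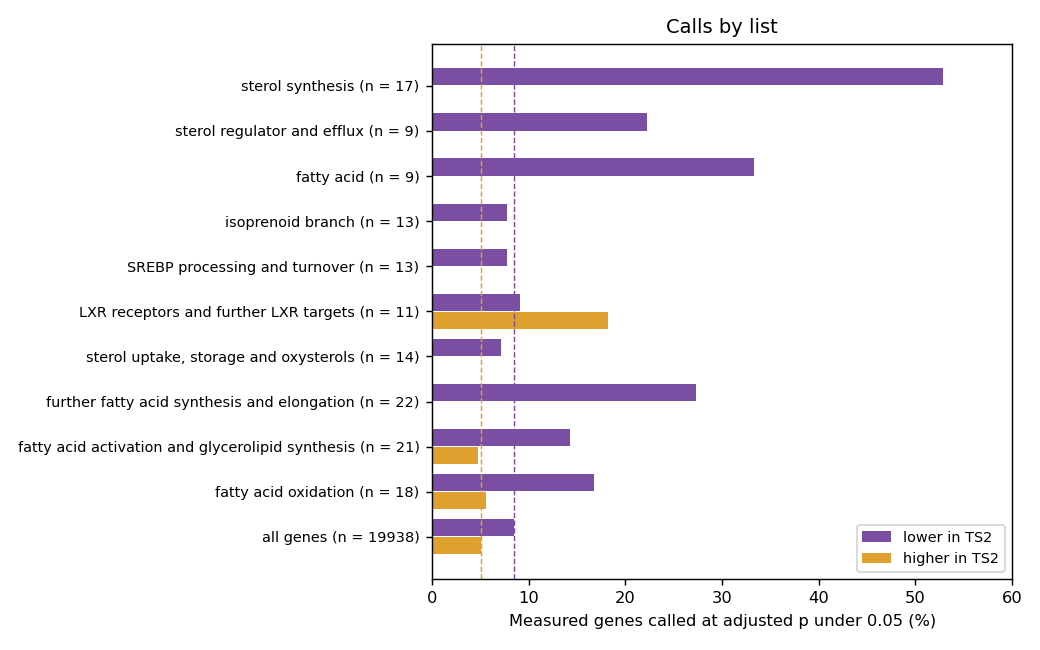
Percent of measured genes called at an adjusted p under 0.05 in each list, lower in TS2 (purple) and higher in TS2 (orange), with the number measured beside the name and dashed lines at the share of all genes. The sterol synthesis steps reach 52.9% lower, against 8.45% of all genes, a share that includes dim genes.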

How the data were processed

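Per the submitters' processing notes, the authors used Affymetrix Expression Console and RMA, with no version given. What they deposited is a linear intensity for each probe set, and log2 was taken here without a pseudocount, as 0 values were missing or non-positive. RMA equalises the arrays, so a change common to most genes would not be seen. Precision is limited by there being 2 arrays per line.

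Of 35556 probe sets, 21789 had 1 gene symbol, 1621 several and 12146 none in the platform's annotation. Symbols were updated by Entrez number through RefSeq's GRCm38.p6 gene list. The brightest single-gene probe set stood for each of 19938 genes, 999 of which had several. One model of all genes, with line as its factor (2 residual and 3.03 prior degrees of freedom), was fitted with lmFit and eBayes of limma 3.58.1 in R 4.3.3. The code was also run on simulated arrays with independent errors, drawn from the variances that the model assumes. That run checks the code only and says nothing on the calls made here. Calls used an adjusted p (Benjamini-Hochberg) under 0.05. Percent of the TS1 level was computed from the log2 difference.

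The members, gene lists and motifs were chosen with earlier results of these data known. All 36 members are named, as are up to 4 called genes with the largest differences of each further list. The fit was repeated with a block for the replicate letter, with 1 array dropped, with a trended, robust or unmoderated variance, after centring or renewed quantile normalization, without the dimmest 30% or 50% of probe sets, and on a gene's mean probe set. An adjusted p under 0.01 and a 2-fold minimum were also tried.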

Additional observations from a re-analysis of the deposited data

How the results depend on the processing

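The 14 called members stayed lower in TS2 in 210 of 210 refits or thresholds, but most of these could not have turned a sign. A changed variance, block, filter or threshold leaves the difference itself as it was. Both TS2 arrays lay below both TS1 arrays for each called member, so dropping 1 array cannot turn it either. Only centring, renewed quantile normalization or a gene's mean probe set could have done so. Of 524 member results, 444 kept their side of the threshold, 68 lost a call and 12 gained one. With the replicate letter as a replicate block, 1666 genes, 9 members and 5 sterol steps passed, against 2691, 14 and 9 without it. Hmgcs1, Fdps, Cyp51, Ebp and Acly lost their calls under that block, which leaves fewer degrees of freedom. No label says whether a letter pairs arrays of the lines. Over all genes, same-letter arrays did not deviate together (r = -0.029), but a deviation shared by fewer genes was not tested. An adjusted p under 0.01 left 807 genes, 5 members, 3 sterol steps, 1 fatty acid step and 1 regulator. A 2-fold minimum left 1035 genes, 5 members, 2 sterol steps and 1 regulator. Unmoderated variances called 0 genes and 0 members, with 4156 genes and 15 members at an unadjusted p under 0.05. The fatty acid steps had 5 calls with a trended variance and without the dimmest 30% or 50%, against 3, since Scd2 and Fads1 passed. Leaving out arrays gave 979 to 2198 genes, 5 to 11 members, 3 to 6 sterol steps, 1 to 3 fatty acid steps and 1 to 2 regulators or efflux genes. The lone array of a line is then assumed to vary like the other line. Centring moved the median of all genes by 0.024 and quantile normalization by 0.0063. Single members moved more under quantile normalization: Mvk went from -0.28 to -0.18 and Hmgcs1 from -0.74 to -0.65, while Abca1 went from 0.0082 to -0.0105. It called 1317 genes lower and 1114 higher, against 1685 and 1006, with 11 members and 7 sterol steps. Centring called 1529 genes lower and 1014 higher, with 14 members and 8 sterol steps. Abca1 gave no value with the dimmest 50% left out. Signal over background, probe sequences and batches were not analysed here.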

Other observations

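Of 21 measured genes of fatty acid activation and glycerolipid synthesis, 3 were lower and 1 was higher in TS2, which is 14.3% and 4.76% against 8.45% and 5.05% of all genes. Plin2, a protein that coats lipid droplets, lay at 9.10 on both TS2 arrays and at 7.61 and 7.46 in TS1, a difference of 1.56 (SE 0.097, adjusted p = 0.00157 by limma). Acsl6, an acyl-CoA synthetase, lay at 5.85 and 5.78 in TS2 and at 7.31 and 7.39 in TS1, a difference of -1.54 (SE 0.091, adjusted p = 0.00136). Both kept their calls whichever array was left out. Agpat4, an acyltransferase, differed by -1.21 and Lpin2, a phosphatidate phosphatase, by -1.04. Agpat4 did not pass when TS2 A or TS2 B was dropped (adjusted p = 0.127 and 0.119), nor Lpin2 when TS1 B, TS2 A or TS2 B was dropped (adjusted p = 0.068, 0.112 and 0.0578).

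Of 18 measured genes of fatty acid oxidation, 3 were lower (16.7%) and 1 was higher (5.56%) in TS2. Among all genes the shares were 8.45% and 5.05%. The median difference of the 18 genes was -0.076. Cpt1a, the gate of fatty acid entry into mitochondria, lay at 9.78 and 9.58 in TS2 and at 8.56 and 7.46 in TS1, a difference of 1.67 (SE 0.36, adjusted p = 0.046). Its TS1 duplicates were over 1 apart on the log2 scale, and it did not pass when TS2 A or TS2 B was dropped (adjusted p = 0.182 and 0.142). Eci1, an enoyl-CoA isomerase, lay at 8.86 and 9.05 in TS2 and at 10.31 on both TS1 arrays, a difference of -1.36 (SE 0.10, adjusted p = 0.0027), and kept its call whichever array was left out. Slc25a20, the carnitine carrier, differed by -0.60 and Cpt2, which acts with it, by -0.43. Cpt2 did not pass when any 1 array was dropped (adjusted p from 0.0808 to 0.186), nor Slc25a20 when TS1 A, TS2 A or TS2 B was dropped (adjusted p = 0.0539, 0.117 and 0.104).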
